A study of Mus musculus with 5 samples.

Results

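Myonuclei, the nuclei of the multinucleated myofibers of skeletal muscle, were compared between wild-type C57BL/6N mouse hindlimb muscle at E18.5 (the embryonic day), the fetal stage, and at E14.5, the embryonic stage. A nucleus was counted as a myonucleus when it held over 400 and under 25000 unique molecular identifiers (UMIs, one per captured RNA molecule) and when Ttn, the gene of the giant sarcomere protein titin, made up at least 1% of them. This gave 1872 myonuclei at E14.5 and 1587 at E18.5, together 3459 of the 9425 barcodes of these 2 libraries and of the 22301 barcodes of the series. Each library held RNA and open chromatin (ATAC) counts from the same nuclei. The E14.5 library came from 56 pooled hindlimbs and the E18.5 library from 14, without skin and bone. Nuclei positive and negative for the myonuclear antigen PCM1 were sorted by FACS and mixed in equal volumes, so the share of myonuclei in a library was set by the sort. Wild-type libraries from postnatal day 5 (P5, 1736 myonuclei) and adult muscle (4435) and a library from Cacna1s-/- E18.5 muscle (987), which lacks the pore subunit of the L-type calcium channel of the sarcolemma on the same background, were used for levels only. With 1 library a stage there was no replicate, no difference could be tested, and stage cannot be told apart from library. All intervals are 95% intervals that cover counting error only.

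Limb myofibers form in successive waves. Primary myofibers arise in the embryo and serve as a scaffold along which fetal myoblasts fuse into secondary myofibers, while motor axons reach the muscle and nerve contact becomes restricted to the endplate. Over the same period myofibers add sarcomeres, membrane systems and mitochondria.

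The myonuclear UMIs summed to 10173455 at E14.5 and 12803266 at E18.5, and the median myonucleus held 4873.5 and 6997 UMIs. All 12 myonuclear marker genes were detected above 20 UMIs. The 11 of them other than Ttn, which the rule used, summed to 20572 CPM (UMIs scaled to a total of 1000000) at E14.5 and 35371 at E18.5, against 375 and 717 in the nuclei of the same libraries with Ttn under 0.1% (Ttn-low nuclei, 2648 and 2450). Just inside the Ttn threshold, from 1% to 1.2%, and just outside it, from 0.8% to 1%, lay together 211 nuclei at E14.5 and 110 at E18.5, of which 88 and 42 lay outside. The sarcomere gene Neb stood at 2604 CPM inside and 2147 CPM outside at E14.5, and at 3074 and 2707 CPM at E18.5. Markers of other cell types moved between the stages. The 11 mesenchymal markers summed to 312 CPM in E14.5 and 1790 CPM in E18.5 myonuclei, none of them at 0 (4014 and 9720 CPM in Ttn-low nuclei), and the share of myonuclei with at least 3 of these markers was 6.73% and 23.0%. Scrublet called 302 (6.05%) of the E14.5 and 675 (15.2%) of the E18.5 barcodes as doublets. Values without such nuclei are given beside the results they move, and 27 barcodes were shared between both libraries, 3 of them myonuclear in both.

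Of 14579 genes with at least 20 UMIs in 1 of both libraries, 2532 (17.4%) were at least 2-fold higher and 1438 (9.86%) at least 2-fold lower in E18.5 than in E14.5 myonuclei. At least 4-fold, 869 (5.96%) were higher and 506 (3.47%) were lower. Ttn-low nuclei showed the opposite balance, with 1378 (8.92%) of 15444 genes at least 2-fold higher and 1660 (10.7%) lower, and with 357 (2.31%) higher and 539 (3.49%) lower at least 4-fold. Of the 2172 genes that were higher in myonuclei and measured in both classes, 646 (29.7%) were higher in Ttn-low nuclei as well and 83 (3.82%) were lower there. Of the 1165 lower genes measured in both, 509 (43.7%) were lower in Ttn-low nuclei as well and 42 (3.61%) were higher. Most genes past 2-fold in myonuclei were therefore not past it in the same direction outside them. The balance of higher and lower genes depended on the scaling and on the nuclei counted. The median log2 ratio over all measured genes was 0.17, scaling with TMM factors shifted every log2 ratio by -0.15, and the higher genes made up 63.8% of the changed genes by CPM, 54.9% with TMM factors (2109 higher, 1730 lower), 55.7% in nuclei thinned to 1000 UMIs, 52.8% without doublets and 51.2% without nuclei that carried 3 markers of another cell type (1813 higher, 1731 lower). Without nuclei with at least 2 UMIs of mesenchymal, tenocyte or endothelial markers, an exclusion added after seeing the data, they made up 49.2% (1687 higher, 1741 lower). The exclusion by 3 markers kept 1516 of 1872 E14.5 and 1040 of 1587 E18.5 myonuclei, with 12705 genes measured. The stricter one kept 1505 and 819 myonuclei, with 12443 genes measured. List counts without these nuclei stand against these totals, and not against 17.4% and 9.86%. List counts in all myonuclei stand against 17.4% and 9.86%, and those in Ttn-low nuclei against 8.92% and 10.7%.

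**Figure D1:**
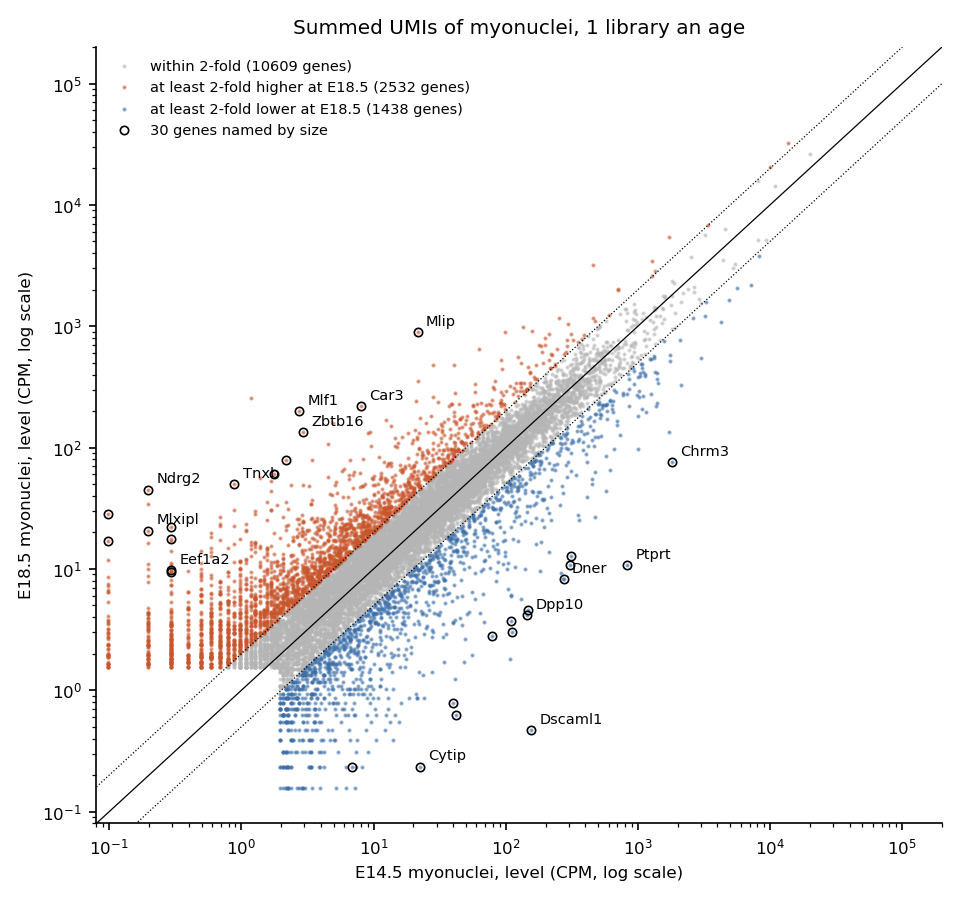
Level of every measured gene in E14.5 myonuclei (horizontal axis) and E18.5 myonuclei (vertical axis), in CPM on log axes with 1 library an age, where a count of 0 is drawn at the floor of 3 counts, the lines mark equal levels and 2-fold differences, and circles mark the 30 genes with the largest gains and losses. The 2532 genes past 2-fold upward lie above the upper dotted line and the 1438 past it downward lie below the lower one.

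The genes with the largest gains, ranked by the lower bound of their ratio and outside the known contractile and metabolic muscle genes, were Ndrg2, Mettl21e, Mlf1, Olfr1321, Mlip, Zbtb16, Crip1, Tnxb, Mlxipl, Eef1a2, Ankrd9, Perm1, Tmem233, Car3 and Itgbl1. The highest level among them was that of Mlip (chromosome 9, 77102081 to 77352969, mm10, minus strand), whose protein binds lamin A and lamin C at the nuclear envelope. It was counted 219 times at E14.5 and 11412 times at E18.5, or 21.5 and 891 CPM, a 41.4-fold difference (36.2 to 47.5). It reached 2304 CPM at P5 and 1229 CPM in adult myonuclei, so the low level was that of E14.5 alone among the wild-type libraries. In Ttn-low nuclei Mlip stood at 5.84 and 9.53 CPM. Ndrg2 (chromosome 14, 51905271 to 51914158, minus strand), of the N-myc downstream-regulated family, went from 2 to 576 UMIs, from 0.197 to 45 CPM, a ratio of 229 (63.1 to 1894). It stood at 65.1 CPM at P5 and 135 CPM in the adult, each above the stage before. Mlf1 (chromosome 3, 67374097 to 67400003, plus strand), myeloid leukemia factor 1, went from 2.75 to 200.03 CPM, a 72.7-fold difference (50.2 to 109.6), with 325 CPM at P5 and 245 CPM in the adult.

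Mlxipl and Perm1 encode regulators of metabolism. Mlxipl (chromosome 5, 135089890 to 135138382, plus strand), the carbohydrate-responsive transcription factor ChREBP, had 2 UMIs at E14.5 and 265 at E18.5, a 105-fold difference (28.9 to 874), and its level went from 20.7 CPM in the fetus over 80.3 CPM at P5 to 246 CPM in the adult. Perm1 (chromosome 4, 156215868 to 156221307, plus strand), a muscle regulator induced by PGC-1 and estrogen-related receptors, had no UMI at E14.5, against a floor of 3 counts, and 120 at E18.5, at least 31.8-fold higher. Zbtb16 (chromosome 9, 48654297 to 48836222, minus strand), a zinc finger repressor known to be induced by glucocorticoids, went from 2.95 to 133 CPM, 45.2-fold (31.6 to 67.2). It was also higher in Ttn-low nuclei, at 22 and 118 CPM. Car3 (chromosome 3, 14863512 to 14872523, plus strand), the cytosolic carbonic anhydrase abundant in slow muscle, went from 8.06 to 220.2 CPM, 27.3-fold (21.9 to 34.5).

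Eef1a2 (chromosome 2, 181147653 to 181157014, minus strand), the translation elongation factor form of muscle and neurons, had no UMI at E14.5 and 125 at E18.5, at least 33.1-fold higher. Its fetal level was 9.76 CPM and its level at P5 44.6 CPM. Tmem233, a transmembrane protein gene, went from 2.16 to 78.3 CPM, 36.2-fold (23.8 to 58), and Ankrd9 from 0.295 to 22.3 CPM, 75.8-fold (25.7 to 369). Mettl21e, a protein lysine methyltransferase, rested on 1 UMI at E14.5 and 360 at E18.5, a ratio with an interval of 51 to 11329.6. Its level was highest at E18.5 among the wild-type libraries, at 28.1 CPM against 7.66 CPM at P5 and 10.5 CPM in the adult. The olfactory receptor gene Olfr1321 was counted 224 times at E18.5 and not at E14.5, at least 59.3-fold higher, and stood at 0.326 CPM at P5 and 0 in the adult. The pattern of these 2 genes differed from that of most others, since 10 of the 15 stood higher at P5 than at E18.5.

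Crip1, Tnxb and Itgbl1 stood apart in that their level in Ttn-low nuclei exceeded that in myonuclei at E18.5. Tnxb, which encodes the matrix glycoprotein tenascin-X, was at 0.885 and 49.8 CPM in myonuclei and at 16.9 and 368.4 CPM in Ttn-low nuclei. Crip1, a small LIM protein gene, was at 0.0983 and 17.1 CPM in myonuclei and at 3.12 and 54.5 CPM in Ttn-low nuclei. Itgbl1, an integrin beta-like secreted protein gene, was at 1.77 and 60.5 CPM in myonuclei and at 22.8 and 218 CPM in Ttn-low nuclei. Without nuclei that carried 3 markers of another cell type their log2 ratios fell from 5.81 to 2.79 for Tnxb, from 7.44 to 4.59 for Crip1 and from 5.10 to 1.13 for Itgbl1. Without nuclei with at least 2 UMIs of mesenchymal, tenocyte or endothelial markers Itgbl1 fell to 0.80, under 2-fold, and it stood at 0.58 without doublets. In that stricter set the other 14 genes remained past 2-fold.

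Relative to these levels, the Cacna1s-/- myonuclei at E18.5 stood at least 2-fold below the wild type for 8 of the 15 genes and at least 2-fold above it for Mettl21e (86.1 CPM). Of 14605 genes with at least 20 UMIs in 1 of these 2 libraries, 820 (5.61%) stood at least 2-fold below and 902 (6.18%) above. The 15 genes were chosen for high wild-type levels at E18.5, which are also the reference here. The choice itself favours lower mutant levels, so these counts do not measure a mutant effect. Crip1, Tnxb and Itgbl1 were among the 8, and the mesenchymal markers summed to 701 CPM in the mutant against 1790 CPM in the wild type. The mutant levels were 11.7 CPM for Ndrg2, 5.49 CPM for Mlxipl, 2.79 CPM for Perm1 and 0.36 CPM for Eef1a2. Mlip, in contrast, stood at 1295 CPM and Zbtb16 at 187 CPM in the mutant, both above their wild-type level at the same age.

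The genes with the largest losses were Dscaml1, Cytip, Ptprt, Zfp804a, Kremen2, Dner, Dpp10, Sphkap, Gja5, Cadps, Syt6, Chrm3, Cacna1b, Lrrc4c and Ostn. Chrm3 (chromosome 13, 9875486 to 10360847, minus strand), the M3 muscarinic acetylcholine receptor, was the most abundant of them and went from 1817 to 75.9 CPM, 23.9-fold lower (22.4 to 25.5). At P5 it stood at 78 CPM and in the adult at 4.84 CPM. Ptprt (chromosome 2, 161521990 to 162661147, minus strand), a receptor-type tyrosine phosphatase, went from 831 to 10.7 CPM, 77.6-fold lower (65.6 to 92.6). Dscaml1 (chromosome 9, 45426628 to 45753712, plus strand), an immunoglobulin adhesion molecule of the Dscam family, went from 1580 to 6 UMIs, 331-fold lower (152 to 904). Its level was 155 CPM at E14.5 and 0.469 CPM at E18.5, and in Ttn-low nuclei 5.26 and 0.86 CPM, so its E14.5 RNA lay mostly in myonuclei.

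Dner (chromosome 1, 84369839 to 84696221, minus strand), a transmembrane protein with Delta/Notch-like EGF repeats, went from 274 to 8.2 CPM, 33.4-fold lower (27.5 to 41). Kremen2 (chromosome 17, 23741197 to 23745833, minus strand), a receptor for the Wnt antagonists of the Dickkopf family, went from 40.0 to 0.781 CPM, 51.2-fold lower (27.6 to 108). Gja5, the gap junction protein connexin 40, went from 148 to 4.61 CPM, 32.2-fold lower (24.8 to 42.5). In Ttn-low nuclei at E18.5 Kremen2 had no UMI and Gja5 stood at 4.83 CPM. Genes of vesicle release and its calcium entry were among the losses. Cadps, a priming factor of dense-core vesicles, went from 305 to 10.9 CPM, Cacna1b, the pore subunit of the N-type calcium channel, from 109.6 to 3.75 CPM, and the synaptotagmin gene Syt6 from 6.88 CPM to 0, at least 29.4-fold lower. Dpp10, an auxiliary subunit of A-type potassium channels, went from 146 to 4.14 CPM, and Lrrc4c, a ligand of netrin-G, from 314 to 12.9 CPM. Cytip, a partner of cytohesins, was counted 229 times at E14.5 and not at E18.5, at least 96.1-fold lower. Sphkap, an anchoring protein of protein kinase A, went from 111 to 3.05 CPM and the zinc finger gene Zfp804a from 41.8 to 0.625 CPM. All 15 genes remained past 2-fold in both exclusions of marker-bearing nuclei.

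Outside myonuclei the losses were partly shared. Of the 15 genes, 8 were also at least 2-fold lower in Ttn-low nuclei, among them Ptprt (132 and 9.27 CPM), Dpp10 (63.4 and 2.71 CPM) and Chrm3 (256 and 62.8 CPM). Ostn, the gene of the secreted peptide musclin, was the exception. It went from 79.4 to 2.81 CPM in myonuclei, 28.2-fold lower (20.2 to 40.6), and from 0.681 to 1.79 CPM in Ttn-low nuclei. In the Cacna1s-/- library 7 of the 12 genes with at least 20 UMIs in it or in the wild type at E18.5 stood at least 2-fold above the wild type (6.18% of all genes) and none stood 2-fold below (5.61%), with 33.4 CPM for Ptprt, 28.6 CPM for Dner and 168 CPM for Chrm3. These genes were chosen for low wild-type levels at E18.5, the reference here. The choice itself favours higher mutant levels, so these counts do not measure a mutant effect either. The counting was not stated to use strand. Reads of Kremen2, Gja5 and Ostn thus cannot be told apart from those of genes that overlap them on the other strand. Chrm3 is overlapped on both strands, with 246 and 11 UMIs for the same-strand model Gm47405 and 98 and 14 for the opposite-strand Gm26861. Among gene models without a name, Gm11290 and Gm13601 were counted only at E18.5 (143 and 122 UMIs), and D7Ertd443e went from 107 to 1.8 CPM and Gm49575 from 270.3 to 8.28 CPM. Gm13601 lies within the span of the known muscle gene Xirp2, on the other strand. Xirp2 went from 12 to 3303 UMIs, and reads of both cannot be told apart for the same reason. Overlaps of the other gene models were not checked.

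**Figure D2:**
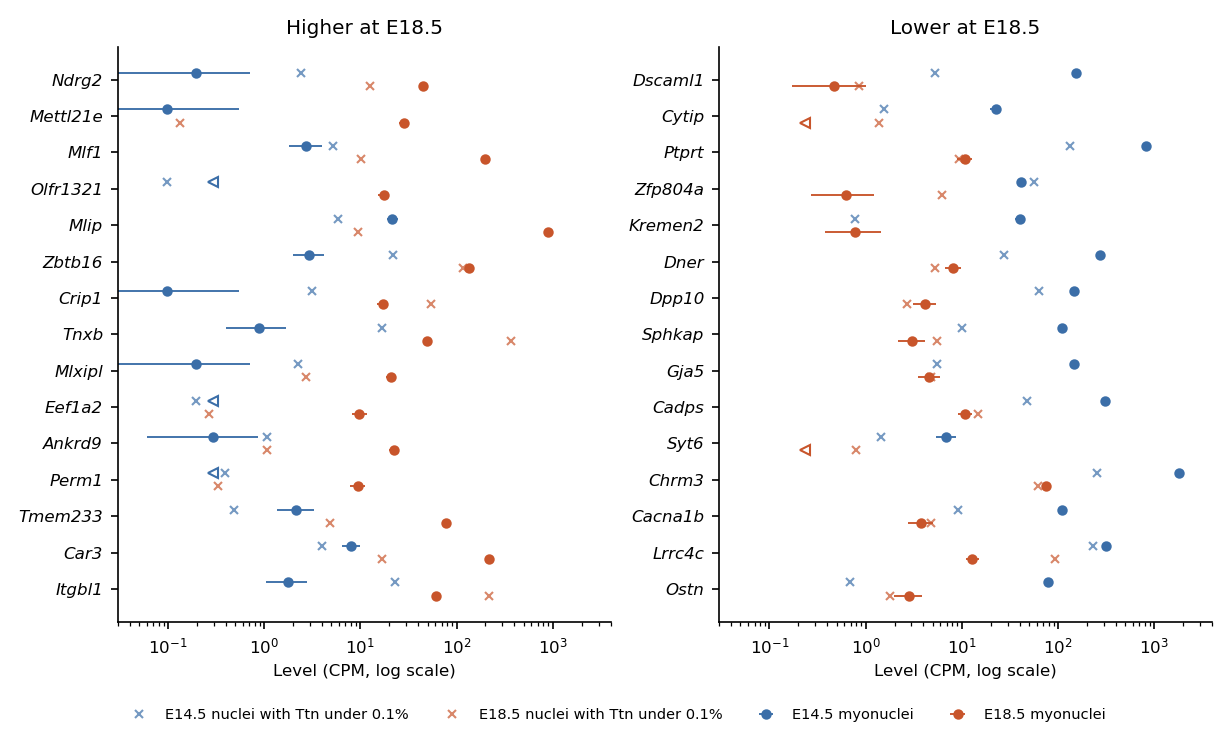
Level in CPM, on a log axis, of the 15 genes with the largest gains (left) and the 15 with the largest losses (right) in E14.5 and E18.5 myonuclei (circles with 95% counting intervals) and in Ttn-low nuclei (crosses), with triangles at the floor of 3 counts for a count of 0. In myonuclei Mlip goes from 21.5 to 891 CPM and Chrm3 from 1817 to 75.9 CPM, and the crosses of Crip1, Tnxb and Itgbl1 at E18.5 lie above their myonuclear level.

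The changes differed in how many nuclei carried them. Shares were compared after each nucleus was thinned to 1000 UMIs (1833 myonuclei at E14.5, 1582 at E18.5), with endothelial nuclei thinned alike (107 and 119) as a class that should lack muscle RNA. The unthinned medians were 4017 and 6010 UMIs in endothelial nuclei. Mlip had a UMI in 1.8% of myonuclei at E14.5 and in 40.4% at E18.5 (38 to 42.9, exact binomial interval), against 0.935% and 0.84% of endothelial nuclei. Without thinning the Mlip shares were 5.4% and 57.3%. Chrm3 had a UMI in 66.6% and 4.42% of thinned myonuclei, against 7.48% and 5.04% of endothelial nuclei, for which no interval was taken. Chrm3 stood at 256 and 62.8 CPM in Ttn-low nuclei, so its endothelial share cannot be read as a background. Without thinning the Chrm3 shares of myonuclei were 86.6% and 14%. Both genes were thus broad among the myonuclei of the stage at which they were high. Other genes were carried by few nuclei. The 5% of E18.5 myonuclei with the most Car3 UMIs held 62% of them, the corresponding share was 76.8% for Tnxb, and for Itgbl1 all its UMIs lay in 5% of the nuclei. For Chrm3 the share was 19.1% at E14.5 and 74.8% at E18.5.

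Part of the nuclear genes of mitochondrial energy metabolism passed 2-fold upward in fetal myonuclei, and few did in Ttn-low nuclei. Of 90 nuclear-encoded subunits of oxidative phosphorylation, 39 were at least 2-fold higher, 51 lay within 2-fold and none was lower (background, 17.4% higher and 9.86% lower), with a median log2 ratio of 0.95 against 0.17 over all genes. In Ttn-low nuclei 4 of 89 were higher and the median was 0.09. By the lower bound the first member was Ndufa4l2, from 1 to 49 UMIs. At E18.5 it stood at 3.83 CPM in myonuclei and 11.6 CPM in Ttn-low nuclei, and its log2 ratio fell from 5.28 to 1.71 without marker-bearing nuclei. Muscle-specific subunits were also among the members with the largest change, with Cox8b from 2.26 to 15.9 CPM (7.01-fold, 4.55 to 11.3), and the ubiquitous Atp5k went from 4.52 to 22.1 CPM (4.89-fold, 3.57 to 6.83). Of 27 genes of the tricarboxylic acid cycle and ketone use, 8 were higher, 19 lay within 2-fold and none was lower, with citrate synthase, Cs, from 42.3 to 156 CPM (3.68-fold, 3.32 to 4.09) and Idh3a, a subunit of isocitrate dehydrogenase, from 17.3 to 68.5 CPM. In Ttn-low nuclei no gene of this list was higher and 3 were lower. RNA of the mitochondrial genome itself was not higher as a group by summed UMIs. Of 13 genes, 1 was higher and 1 lower, the median log2 ratio was -0.33, and in Ttn-low nuclei it was 0.87. The median share of this RNA in a single myonucleus, however, was 0.0295% at E14.5 and 0.0447% at E18.5. The libraries were made from isolated nuclei, so these values do not measure RNA levels within mitochondria. In lipid synthesis and storage, 14 of 32 genes were higher and 1 was lower. Acacb, the acetyl-CoA carboxylase form that controls fatty acid entry into mitochondria, went from 6 to 66.5 CPM (11.1-fold, 8.54 to 14.6), and Mgll, monoacylglycerol lipase, was the lower member, from 87 to 13.5 CPM (6.44-fold, 5.46 to 7.62).

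Among nuclear receptors and among genes known to respond to steroid and thyroid hormones, more members passed 2-fold upward than downward in fetal myonuclei. Of 33 nuclear receptors, 16 were higher, 16 lay within 2-fold and 1 was lower, and in Ttn-low nuclei 4 of 36 were higher and 6 lower. Esrrg, estrogen-related receptor gamma, went from 22.6 to 177 CPM (7.81-fold, 6.81 to 8.98) while its level in Ttn-low nuclei went from 92.2 to 44.7 CPM. The retinoid receptor Rxrg was the 1 lower receptor, from 235 to 65.8 CPM. Of 18 steroid and thyroid response genes, 14 were higher and none was lower, with a median log2 ratio of 1.75. They were higher outside myonuclei too, at 10 of 19 in Ttn-low nuclei with a median of 1.05. Klf9, a factor induced by both hormones, went from 1.77 to 19.8 CPM in myonuclei and from 3.41 to 20.5 CPM in Ttn-low nuclei, and Tsc22d3, the glucocorticoid-induced leucine zipper, from 2.16 to 22.6 CPM and from 10.3 to 30.0 CPM. Clock genes were higher in 6 of 19, with none lower, and in 5 of 18 in Ttn-low nuclei. The hour of collection was not used here.

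Other factor families varied. Of 50 Klf, Sp, Ets and AP-1 factors 18 were past 2-fold upward and 1 downward, against 11 upward of 55 in Ttn-low nuclei. Etv4, an Ets factor of the Pea3 group, went from 1.47 to 9.69 CPM. Hox and Tale factors were higher in 7 of 28 with 1 lower in myonuclei, and in Ttn-low nuclei none was higher and 12 of 38 were lower. Hoxc9, a patterning factor, went from 6.49 to 21.9 CPM (3.37-fold, 2.57 to 4.48). Among Sox, T-box and related factors 3 of 25 were higher and 5 lower (1 and 7 of 22 without marker-bearing nuclei). Sox5, known from cartilage and neural development, went from 450.4 to 49.99 CPM (9.01-fold lower, 8.29 to 9.8), and its loss was larger without marker-bearing nuclei (log2 -3.17 with them, -6.19 without). Dach1, a partner of Eya factors, went from 387 to 112 CPM.

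Among cell adhesion and synaptic receptor genes more members passed 2-fold downward than upward, in fetal myonuclei and in the Ttn-low nuclei of the same muscles. Glutamate and GABA receptor subunits were lower in 17 of 29 and higher in 4, with a median log2 ratio of -1.15. In Ttn-low nuclei 21 of 35 were lower and none was higher. Grid1, the delta-type glutamate receptor, went from 611 to 65.1 CPM in myonuclei (9.39-fold lower, 8.73 to 10.1) and the kainate receptor subunit gene Grik1 from 104 to 6.87 CPM (15.2-fold lower, 12.2 to 19.1). Cadherins and protocadherins were lower in 22 of 61 and higher in 3, with 36 within 2-fold and with a median of -0.87. Pcdh17 went from 140.3 to 10.1 CPM (13.9-fold lower, 11.6 to 16.8), and Cdh11, a cadherin of mesenchymal cells, from 577 to 85.1 CPM, with log2 -2.76 in all myonuclei and -5.52 without marker-bearing nuclei. Immunoglobulin and neurexin adhesion molecules were lower in 19 of 56 and higher in 7, with 30 within 2-fold, and without marker-bearing nuclei in 28 and 1 of 49. Igsf1, an immunoglobulin superfamily membrane protein, was among the higher ones, from 1.08 to 23.6 CPM (21.8-fold, 12 to 44.2). Axon guidance genes were split, with 12 higher and 14 lower of 55. The netrin receptor Unc5d went from 129.6 to 5.62 CPM (23-fold lower, 18.2 to 29.6) and the semaphorin Sema4d from 3.54 to 24.5 CPM (6.93-fold higher, 4.9 to 10.1). The 6 markers of neurons summed to 122.6 CPM in E14.5 and 12.6 CPM in E18.5 myonuclei, none of them at 0. Of these, Syt1 stood at 58.3 and 5.7 CPM, Elavl4 at 51.1 and 4.22 CPM and Rbfox3 at 11.4 and 1.2 CPM, while Snap25, Stmn2 and Tubb3 were under 1 CPM at both ages and Stmn2 went from 0.393 to 0.781 CPM. The part of neuronal RNA in these losses was not tested.

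Channel and transporter genes moved in both directions. Of 50 calcium and sodium channel genes 14 were higher and 8 lower in myonuclei, against 2 and 14 of 51 in Ttn-low nuclei. Scn4b, a beta subunit of sodium channels, was counted 25 times at E18.5 and not at E14.5, and stood at 66.6 CPM in the adult. Of 43 potassium channel genes 9 (20.9%) were higher, near the 17.4% of all genes, and 11 (25.6%) lower, against 9.86%. Kcnk2, the leak channel TREK-1, went from 169 to 16.2 CPM (10.4-fold lower, 9.03 to 12.1). Of 230 solute carriers 60 were higher and 16 lower. Slc9a2, a sodium/proton exchanger, went from 1.67 to 43.7 CPM (26.1-fold, 16.2 to 45.2) and the potassium-dependent sodium/calcium exchanger Slc24a4 from 14.6 to 0.625 CPM (23.4-fold lower, 11.6 to 55.3). Aqp4, the water channel of fast fibers, was counted 27 times at E18.5 and not at E14.5, and stood at 95.1 CPM at P5.

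Growth factor and pathway genes moved in both directions as well. Of 45 Fgf and Egf family genes 18 were lower and 14 higher, and without marker-bearing nuclei 19 were lower and 7 higher of 38. Fgf14, an intracellular member that binds sodium channels, went from 1395 to 233 CPM (5.99-fold lower, 5.75 to 6.23), the secreted Fgf9 from 221 to 39.4 CPM (5.61-fold lower, 5.09 to 6.19) and Fgf4 from 7.57 to 0.937 CPM. Fgf9 in Ttn-low nuclei stood at 15.7 and 11.3 CPM, well under its myonuclear level. Among hypoxia and angiogenic genes, Vegfa, the main angiogenic growth factor, went from 20.0 to 115 CPM (5.75-fold, 4.96 to 6.69) and the platelet-derived growth factor Pdgfc from 1162 to 197 CPM (5.89-fold lower, 5.64 to 6.15). Vegfa was higher in Ttn-low nuclei as well, at 29.8 and 89.2 CPM. Of 41 Wnt pathway genes in myonuclei, 17 were past 2-fold upward and 4 downward, against 2 and 11 of 41 in Ttn-low nuclei, but 7 higher and 8 lower of 28 without nuclei with stromal markers. Lef1, a transcription factor of the pathway, kept its difference there, with log2 2.33 in all myonuclei and 2.48 without them, and went from 6.78 to 34.1 CPM, while the secreted antagonist Sfrp4 turned from 3.67 to -1.07. In the insulin and Igf pathway 8 (25%) of 32 were higher and 3 (9.38%) lower, against 17.4% and 9.86% of all genes (6 and 6 of 31 without marker-bearing nuclei). Igf2, the fetal growth factor, went from 222 to 591 CPM (2.67-fold, 2.54 to 2.8). Of 16 Notch pathway genes 6 (37.5%) were higher and 2 (12.5%) lower, with Hes6 from 37.1 to 10.5 CPM.

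Collagen, cell cycle and Bmp and Tgf-beta genes passed 2-fold upward in part, together with the mesenchymal markers, and their counts changed when marker-bearing nuclei were left out. Collagens were higher in 19 and lower in 7 of 39 in all myonuclei, and in 10 and 10 of 31 without those nuclei. Over all genes 1813 of 12705 were higher and 1731 lower without them. Col23a1, a transmembrane collagen, did not follow the stroma, at 40.8 and 478 CPM in myonuclei (11.7-fold, 10.6 to 13) and 138 and 37.1 CPM in Ttn-low nuclei. Cell cycle genes were higher in 13 of 39 with 1 lower, and in 5 with 4 lower of 21 without marker-bearing nuclei, where the log2 ratio of Top2a, the replication topoisomerase, turned from 1.72 to -1.15. Of 56 Bmp and Tgf-beta pathway genes 19 were higher and 7 lower, and without those nuclei 8 and 12 of 45. The part of stromal RNA in the values of these lists was not tested beyond these exclusions.

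Among 44 interferon, antigen and complement genes 26 (59.1%) were past 2-fold upward and 3 downward, and without marker-bearing nuclei 16 of 28 (57.1%) and 4. They were higher in 34 of 66 in Ttn-low nuclei. H2-K1, a class I antigen-presenting molecule, was counted 58 times at E18.5 and not at E14.5, at least 15.4-fold higher, and Ifih1, a sensor of double-stranded RNA, went the other way, from 17.3 to 1.56 CPM in myonuclei and from 4.48 to 15.6 CPM in Ttn-low nuclei. The 8 macrophage markers summed to 12.8 CPM in E14.5 and 82.2 CPM in E18.5 myonuclei, and the part of RNA from immune cells in these values was not tested.

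Among structural and protein-quality genes outside the sarcomere single members changed in both directions. Among ankyrins, spectrins and plakins, Ank3, the membrane scaffold ankyrin G, went from 134 to 980.1 CPM (7.31-fold, 6.91 to 7.74), and Synm, the intermediate filament protein synemin, from 1.08 to 20.7 CPM (19.1-fold, 10.5 to 38.8). Myo5c, an unconventional myosin, went from 1.67 to 30.4 CPM and reached 197 CPM in the adult, whereas Myo5b went from 95.4 to 10.9 CPM, the kinesin Kif26b from 569.5 to 44.1 CPM and the axonemal dynein Dnah12 from 118 to 10.5 CPM. Of the small heat shock proteins 3 were among the largest gains of the chaperone list. Hspb6 went from 0.197 to 10.9 CPM, Hspb7 from 0.983 to 9.14 CPM and Hspb8 from 5.9 to 39.3 CPM. Of the 78 chaperone genes in all 8 (10.3%) were higher and 2 (2.56%) lower, both under the 17.4% and 9.86% of all genes. Of 237 ubiquitin ligase adaptors 25 (10.5%) were higher and 12 (5.06%) lower, again under the shares of all genes. The members with the largest gains were Asb12, Asb11 and Asb15, of the ankyrin and SOCS box family, and Kbtbd12, from 18.3 to 132 CPM (7.23-fold, 6.21 to 8.46). Among autophagy and lysosome genes 5 of 25 (20%) were higher, near the share of all genes, and none was lower. Tfeb, their transcription factor, went from 2.85 to 28 CPM (9.84-fold, 6.73 to 14.9).

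Several regulators of RNA and of fetal growth were lower. Lin28b, the RNA-binding protein that blocks let-7 maturation, went from 27.5 to 1.41 CPM (19.6-fold lower, 12.2 to 33.5), and from 25.1 to 3.97 CPM in Ttn-low nuclei. The mRNA-binding protein gene Igf2bp1 went from 159 to 60.3 CPM and the zinc finger gene Plag1 from 124 to 46.4 CPM. Of the 15 let-7 regulated growth genes 4 were lower and 1, Igf2, was higher. Among 91 RNA-binding splicing factors 7 were higher and 10 lower, with the neuronal Elavl4 from 51.1 to 4.22 CPM. The imprinted non-coding RNA H19 went from 80.9 to 305 CPM (3.77-fold, 3.49 to 4.07) and the nuclear non-coding RNA Neat1, the scaffold of paraspeckles, from 21.2 to 118 CPM (5.54-fold, 4.8 to 6.42). Malat1, which alone supplied 415939 of the E18.5 UMIs, went from 13673 to 32487 CPM. Lists with few members past 2-fold were the proteasome subunits, of which none of 43 passed 2-fold, the ribosomal proteins, of which 2 of 77 were higher, Rpl3l and Rps29, and the chromatin and DNA methylation genes, with 7 higher and 6 lower of 109.

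Of 198 known muscle genes 80 (40.4%) were higher and 20 (10.1%) lower, against 17.4% and 9.86% of all measured genes. The counts of the remaining lists follow. Matrix proteases and their inhibitors had 15 higher and 8 lower of 45 (6 and 11 of 35 without marker-bearing nuclei), and integrins and laminins 11 and 3 of 35 (6 and 5 of 24). Itga4, the integrin alpha 4 subunit, went from 409 to 39.1 CPM (10.5-fold lower, 9.55 to 11.5). Fox, Runx, Ebf and Gata factors had 9 higher and 3 lower of 47 (4 and 6 of 37 without those nuclei), and the log2 ratio of Ebf1, a stromal factor, turned from 1.63 to -0.87 without marker-bearing nuclei. Receptor-type phosphatases had 2 higher and 5 lower of 16, aquaporins and ABC transporters 12 and 3 of 37, and unconventional myosins and kinesins 12 and 13 of 67. Among calmodulin kinase and calcineurin genes 8 were higher and 1 lower of 31, and Myoz3, a calcineurin-binding protein of the Z-disc, went from 0.59 to 18.3 CPM (31-fold, 14 to 85.3). Phosphodiesterase and adenylyl cyclase genes had 19 higher and 11 lower of 70 (13 and 12 of 60 without marker-bearing nuclei), amino acid and one-carbon genes 7 and 1 of 28, antioxidant genes 6 and 3 of 47 (4 and 4 of 39), and glycosyltransferases 17 and 19 of 97 (11 and 25 of 86). Galnt13, which starts mucin-type O-glycans, went from 68.4 to 3.67 CPM (18.6-fold lower, 13.9 to 25.6) and St8sia2, a polysialyltransferase that modifies the neural cell adhesion molecule, from 39.7 to 3.59 CPM (11.1-fold lower, 8.13 to 15.3). Histone genes had 3 higher and 6 lower of 22, imprinted genes 8 and 2 of 33, nuclear long non-coding RNAs 5 and 2 of 19, ankyrins and spectrins 6 and 2 of 24, hypoxia and angiogenic genes 9 (42.9%) and 4 of 21, and none of 5 sex chromosome RNAs passed 2-fold.

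**Figure D3:**
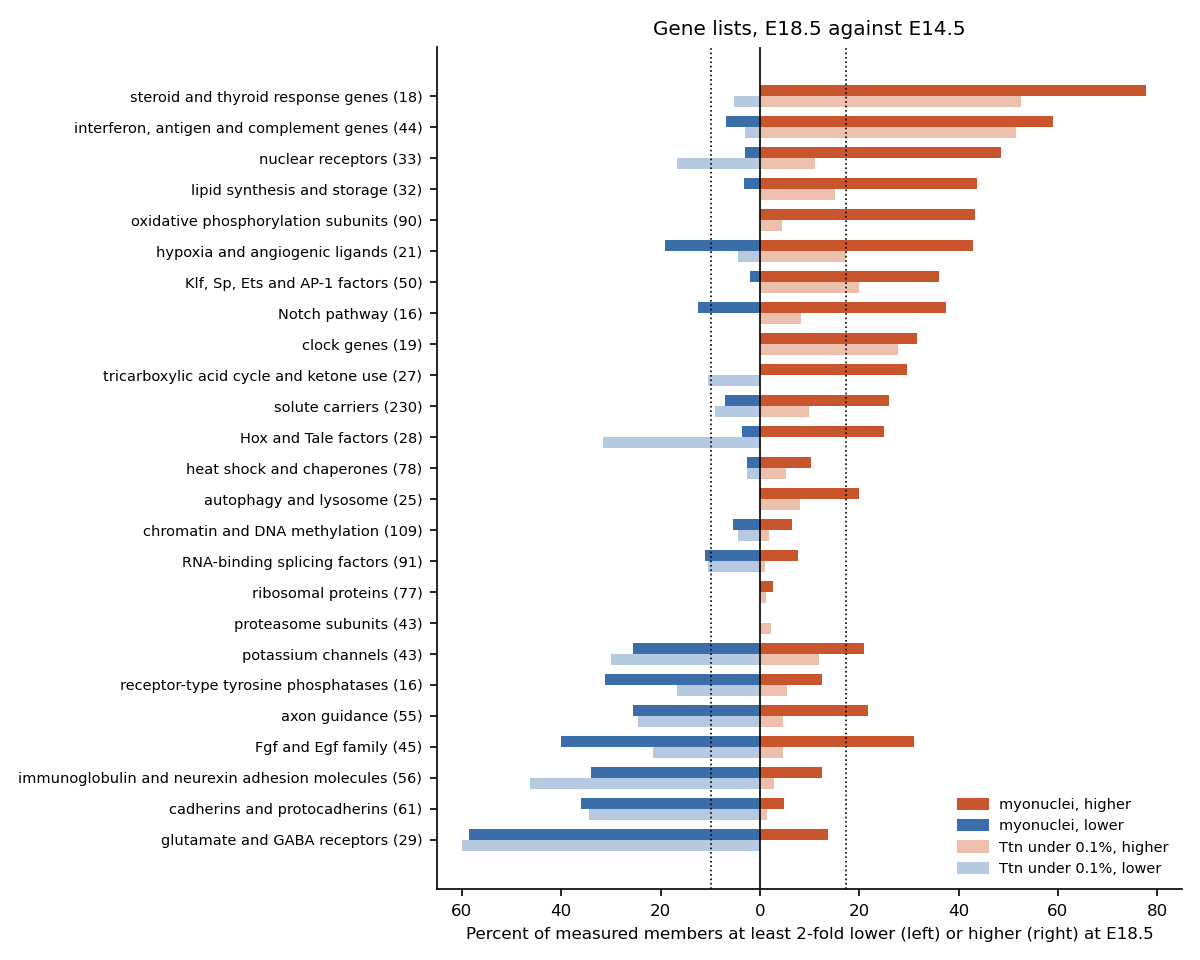
Percentage of the measured members of each gene list (number in brackets) that were at least 2-fold higher (right) or lower (left) at E18.5, in myonuclei (dark bars) and in Ttn-low nuclei (pale bars), with dotted lines at the 17.4% and 9.86% of all measured genes in myonuclei. Oxidative phosphorylation subunits stand at 39 of 90 higher in myonuclei and 4 of 89 in Ttn-low nuclei, whereas glutamate and GABA receptors stand at 17 of 29 and 21 of 35 lower.

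Several of the gained genes have a ubiquitous counterpart, and for 9 such pairs, picked after their values were seen, the muscle form was taken as a share of both forms. Eef1a2 held 0 of 2203 UMIs of the pair Eef1a2 and Eef1a1 at E14.5, which allows a share of up to 0.136% at the floor of 3 counts and up to 0.167% by the exact binomial interval, and 6.15% at E18.5 (5.15 to 7.29, exact binomial interval). At P5 it held 50.7% and in adult myonuclei 97.4%. Rpl3l, the striated muscle form of ribosomal protein L3, held 0.467%, 16.3%, 84.9% and 98.1% at these 4 ages. At E18.5 both muscle forms were still the minor form. Hk2, the insulin-regulated hexokinase, against Hk1 held 56.5%, 93.1%, 95.3% and 99.7%, and the glucose transporter gene Slc2a4 against Slc2a1 held 47.8%, 75.2%, 95.6% and 96.7%, and for both the largest step between neighbouring ages was that from E14.5 to E18.5. Acacb against Acaca held 3.00%, 24.7%, 69.8% and 70.1%. Slc25a4 against Slc25a5 held 78.0%, 80.4%, 94.996% and 97.7%. The shares of 3 cytochrome oxidase forms were lower in the adult than at P5. Cox6a2 against Cox6a1 held 33.9% at both embryonic ages, since both forms were 2.37-fold higher at E18.5, and then 46.1% and 11.2%. Cox7a1 against Cox7a2 held 0.442%, 6.94%, 13.4% and 6.20%, and Cox8b against Cox8a 6.34%, 21.9%, 27.3% and 22.6%. The counts were low, with 49 UMIs at P5 and 23 in the adult for Cox7a1 and 113 and 77 for Cox8b. No interval was taken for shares at P5 and in the adult. In Cacna1s-/- myonuclei at E18.5 Eef1a2 held 0.20% and Rpl3l 6.92% of their pairs. The members of a pair are similar in sequence, and reads of one may have been counted for the other.

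**Figure D4:**
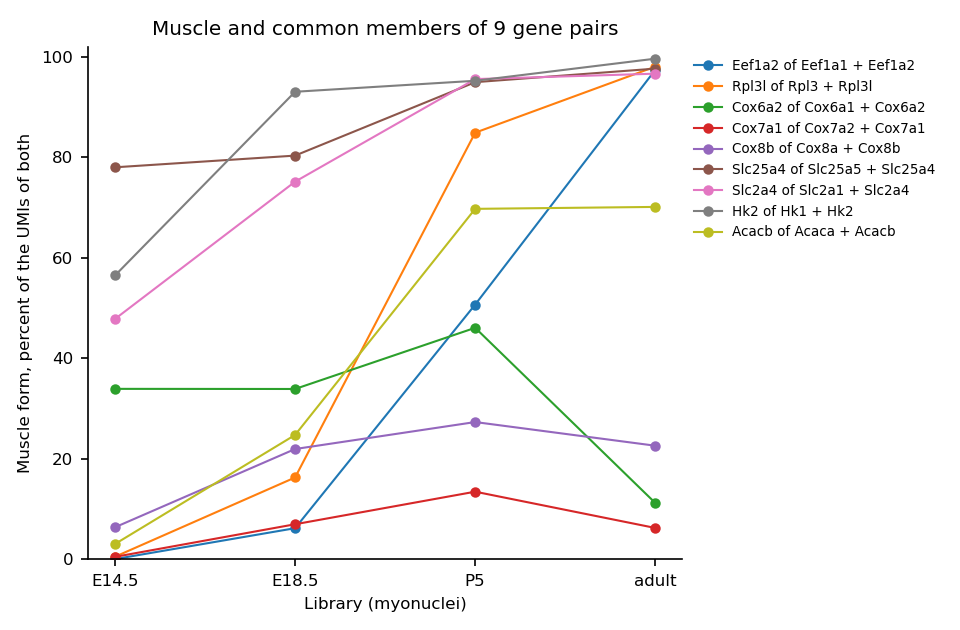
Share of the muscle form, in percent of the UMIs of both forms of a pair, in wild-type myonuclei at E14.5, E18.5, P5 and in the adult, with 1 library an age and 1 line a pair. Hk2 and Slc2a4 stand at 93.1% and 75.2% by E18.5, while Eef1a2 and Rpl3l stand at 6.15% and 16.3% and are above 50% at P5.

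Open chromatin at start sites was compared in the same nuclei as ATAC counts in peaks. Counted were peaks that overlap the start-site interval listed for a gene, extended by 1000 bases each side. For some genes with distant starts this interval is long and takes in peaks within the gene, with 481847 bases for Chrm3 and 1149489 for Lrrc4c. Counts were scaled to a total of 1000000 over all peaks of the myonuclei (11096483 counts at E14.5, 15322296 at E18.5). Peaks were called in each library apart, 65624 and 91265 of them, so a gene without a peak in a library has no value there. They were called in the whole library and not in myonuclei, which made up 38.8% and 37.1% of the barcodes within the UMI limits. A peak called in 1 library alone therefore does not describe its myonuclei alone, and myonuclear counts at an uncalled site are not known. Of 12747 genes with peaks in both, 617 (4.84%) were at least 1.5-fold higher at E18.5 and 752 (5.9%) at least 1.5-fold lower. Among the genes whose RNA was at least 4-fold higher, 206 of 607 (33.9%) were higher in ATAC as well, with a median log2 ratio of 0.40, and a further 122 of the 869 genes had a peak at E18.5 alone (14.0%) and 9 at E14.5 alone. Among the genes whose RNA was at least 4-fold lower, 148 of 316 (46.8%) were lower in ATAC, with a median of -0.53, while 28 of the 506 genes (5.53%) had a peak at E18.5 alone and 21 (4.15%) at E14.5 alone. Over all measured genes 435 (2.98%) had a peak at E18.5 alone and 111 (0.761%) at E14.5 alone. Genes whose RNA ratio lay within 0.32 of 0 on the log2 scale had a median of -0.01, with 1.37% higher and 2.78% lower. The group medians had the sign of the RNA change and were smaller than it. Restricting to genes whose start sites span at most 1000 bases gave medians of 0.39, -0.01 and -0.53 for these 3 groups. A sum over peaks called apart grows with the bases called, so the values were also taken per 1000 bases of peak, a choice made after seeing the data, which gave medians of 0.29, -0.03 and -0.65. By this measure 26.2% of the genes with at least 4-fold higher RNA were past 1.5-fold upward (3.79% of all genes) and 53.2% of those with at least 4-fold lower RNA downward (9.52% of all).

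Of the 30 genes with the largest gains and losses, 19 had a peak in both libraries and 14 of these were past 1.5-fold in the direction of their RNA, against 11 per 1000 bases of peak, where Mlip, Tnxb and Dner no longer passed. Within 1000 bases of annotated transcript starts Lrrc4c no longer passed (0.777), Tnxb had no peak and Dpp10 had one at E14.5 alone. Cytip had peaks in both libraries there, with a ratio of 0.12. Mlxipl went from 12.6 to 42.9 scaled ATAC counts, a ratio of 3.4 (2.83 to 4.11), over 1357 and 1669 bases of peak (2.76 per 1000 bases), and Mlf1 from 12.3 to 33.4, a ratio of 2.7 (2.23 to 3.29), over 846 and 1508 bases (1.52 per 1000 bases). Mlip had 1 peak of 961 bases at E14.5 and 7 peaks of 6180 bases at E18.5, with 7.88 and 8.98 scaled counts per 1000 bases, so its summed ratio of 7.33 went with the number of peaks called. Within 1000 bases of its annotated transcript starts the values per 1000 bases were 9.07 and 8.5. Ndrg2, Perm1, Crip1, Mettl21e and Eef1a2 had a start-site peak at E18.5 alone, with 45.8 scaled counts at Ndrg2 and 31.8 at Perm1. Among the losses, Ptprt went from 18.1 to 7.31, a ratio of 0.404 (0.317 to 0.511), over 790 and 824 bases, and Chrm3 had a ratio of 0.376 over 12801 and 9804 bases (0.492 per 1000 bases). Around the annotated transcript starts of Chrm3 the ratio was 0.511 (0.419 to 0.6215). Dner had 2 peaks of 1780 bases at E14.5 and 1 of 812 bases at E18.5, with 27.8 and 23.3 scaled counts per 1000 bases, a ratio of 0.839, against 0.383 for the sums. Kremen2, Cadps, Dscaml1 and Ostn had a peak at E14.5 alone, with 45.9 scaled counts at Kremen2. Exceptions were Tmem233, whose RNA was 36.2-fold higher with a ratio of the ATAC sums of 0.778 (0.593 to 1.02; 1.28 per 1000 bases), and Itgbl1, Zfp804a, Cacna1b and Syt6, with ratios of the sums of 1.124, 0.767, 0.749 and 1.06. Both cut ends of a fragment can be counted, so these intervals are too narrow.

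**Figure D5:**
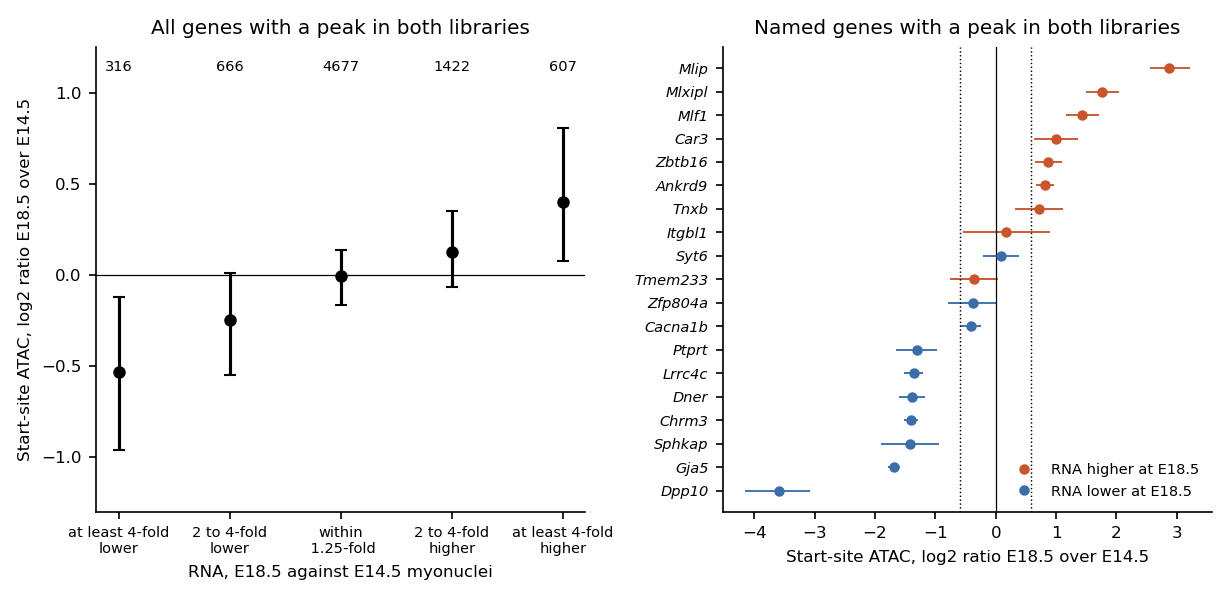
Start-site ATAC, log2 ratio of the summed counts at E18.5 over E14.5 in myonuclei, as the median and quartiles of groups of genes by RNA change with the number of genes above (left), and for the 19 named genes with a peak in both libraries with 95% counting intervals and dotted lines at 1.5-fold (right). The group median goes from -0.53 for genes at least 4-fold lower in RNA to 0.40 for genes at least 4-fold higher.

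Start-site sequences are shown for 6 of the genes whose start-site ATAC values are given above, as 300 bases of RefSeq promoter (GRCm38.p6), from 250 bases before the start to 50 after it, written 5′ to 3′ on the gene's strand. Capitals mark matches on either strand to the E-box CAGCTG, the M-CAT motif CATTCC, the Maf element TGCTGA, the nuclear receptor element AAGGTCA and a 10-letter Mef2 motif, and a palindromic NFI motif, searched as well, had no match in them. Ndrg2 lies at chr14:51913955-51914254 (minus strand), Perm1 at chr4:156215677-156215976 (plus), Mlip at chr9:77347807-77348106 (minus) and Mlf1 at chr3:67373847-67374146 (plus). Kremen2 lies at chr17:23745780-23746079 (minus) and Dner at chr1:84696172-84696471 (minus).
Ndrg2: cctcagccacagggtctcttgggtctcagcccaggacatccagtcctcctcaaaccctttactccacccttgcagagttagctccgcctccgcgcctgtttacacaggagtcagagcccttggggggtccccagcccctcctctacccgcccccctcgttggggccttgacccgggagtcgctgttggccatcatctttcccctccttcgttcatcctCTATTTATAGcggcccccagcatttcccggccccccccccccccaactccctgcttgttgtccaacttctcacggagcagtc
Perm1: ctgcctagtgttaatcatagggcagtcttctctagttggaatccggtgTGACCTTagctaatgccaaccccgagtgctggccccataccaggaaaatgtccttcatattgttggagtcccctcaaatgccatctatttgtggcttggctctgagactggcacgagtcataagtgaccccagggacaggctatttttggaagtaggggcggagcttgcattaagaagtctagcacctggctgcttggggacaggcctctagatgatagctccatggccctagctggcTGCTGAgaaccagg
Mlip: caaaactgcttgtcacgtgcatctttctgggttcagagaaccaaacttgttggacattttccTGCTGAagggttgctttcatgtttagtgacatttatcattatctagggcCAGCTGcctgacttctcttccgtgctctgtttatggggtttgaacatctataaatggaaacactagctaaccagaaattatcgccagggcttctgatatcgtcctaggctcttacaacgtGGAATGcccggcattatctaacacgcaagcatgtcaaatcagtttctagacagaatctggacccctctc
Mlf1: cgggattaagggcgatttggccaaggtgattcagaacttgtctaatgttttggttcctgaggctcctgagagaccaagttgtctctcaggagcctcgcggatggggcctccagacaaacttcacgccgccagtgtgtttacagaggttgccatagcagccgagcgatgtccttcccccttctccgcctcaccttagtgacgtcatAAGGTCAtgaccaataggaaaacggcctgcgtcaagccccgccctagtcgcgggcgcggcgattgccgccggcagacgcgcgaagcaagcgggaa
Kremen2: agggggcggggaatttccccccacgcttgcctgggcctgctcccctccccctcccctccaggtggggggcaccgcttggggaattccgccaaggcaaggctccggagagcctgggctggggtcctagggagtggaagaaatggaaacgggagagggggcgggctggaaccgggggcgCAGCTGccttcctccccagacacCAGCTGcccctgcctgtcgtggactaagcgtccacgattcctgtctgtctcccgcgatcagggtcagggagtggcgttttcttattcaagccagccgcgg
Dner: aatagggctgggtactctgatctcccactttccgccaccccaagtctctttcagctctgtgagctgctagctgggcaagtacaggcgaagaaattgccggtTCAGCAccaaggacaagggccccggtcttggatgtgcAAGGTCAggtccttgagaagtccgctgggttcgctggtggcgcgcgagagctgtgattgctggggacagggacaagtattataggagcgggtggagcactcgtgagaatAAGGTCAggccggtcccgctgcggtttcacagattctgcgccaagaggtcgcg

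The windows shown at Ndrg2, Perm1 and Mlip overlapped a peak at E18.5 alone, that at Kremen2 overlapped a peak at E14.5 alone, and those at Mlf1 and Dner overlapped peaks in both libraries. The capitals of Ndrg2 are a Mef2 motif whose first base lies at position -32, counted from the start at +1. This motif was in 0.164% of all 32851 RefSeq promoters of this length. It was in 1 of the 17 windows of gained genes and in 0 of the 15 of lost genes. The other RefSeq windows of Ndrg2, which also overlapped a peak at E18.5 alone, had no match to it. Mlip holds a Maf element at -188, an E-box at -139 and an M-CAT motif at -19, Perm1 a nuclear receptor element at -202 and a Maf element at 37, and Mlf1 a nuclear receptor element at -45. Kremen2 holds E-boxes at -73 and -50, and Dner a Maf element at -149 and nuclear receptor elements at -112 and -3. RefSeq promoters were found for 12 of the 15 gained genes (17 windows) and for 13 of the 15 lost genes (15 windows). The E-box was in 5 of the gained and 6 of the lost windows against 16.3% of all promoters, the M-CAT motif in 2 and 0 (14.7%), the Maf element in 4 and 3 (19.5%), the nuclear receptor element in 3 and 3 (4.72%), the NFI motif in none (0.0365%), the Klf motif CACCC in 10 and 7 (57.5%) and CCAAT in 5 and 3 (37.4%). Windows of 1 gene overlap, so these counts are descriptions and a match is not a site.

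Gene length went with the direction of change. In the 25% of measured genes with the shortest span the median log2 ratio was 0.37 and 7.52% were at least 2-fold lower, and in the 25% with the longest span it was -0.06 and 17.6% were lower. In Ttn-low nuclei the medians of these sets were 0.08 and -0.10. The losses include long genes such as Ptprt, Chrm3, Dpp10 and Lrrc4c, and intronic reads were counted, so a long gene offers more positions to capture. The part of gene length in these changes was not tested.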

How the data were processed

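The deposited counts, whole-number UMI counts per gene and ATAC counts per peak for each barcode, were made by the authors with Cell Ranger ARC 2.0.0 (mm10, intronic reads included) and were not normalized. Whether counting used strand is not given in the sources used here. UMIs of the myonuclei were summed per library and scaled to CPM, with exact Poisson 95% intervals for levels and exact conditional intervals for ratios. A gene was measured with at least 20 UMIs in 1 of both libraries, was called by size at 2-fold, and a count of 0 was set to 3 counts in ratios, called a floor, which is 0.295 CPM at E14.5 and 0.234 CPM at E18.5. With 1 library a group no test was run. Intervals cover counting error only. The 15 genes in each direction were those with the largest lower bound of the ratio outside the known muscle genes and the gene models, and up to 4 genes a list were named by the same bound, with factors of the factor lists also free to be named. Rxrg and Syt1 were picked after their values were seen. The members, the 51 gene lists and the thresholds were chosen with earlier results of these data known. Start-site ATAC counts were scaled to a total of 1000000 over the peaks of the same nuclei and called at 1.5-fold. Alternatives were TMM factors (edgeR 4.0.16, R 4.3.3), other Ttn thresholds, filters, thinning, and the removal of nuclei with markers of other cell types or called by Scrublet (scanpy 1.11.5). The counting script was tested on simulated data. Coordinates are GENCODE gene spans on mm10, and promoters are from RefSeq. Python 3.11.15 with numpy 2.4.6, scipy 1.17.1 and pandas 2.3.3 was used.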

Additional observations from a re-analysis of the deposited data

Results flagged for a closer look

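Ostn stood out because its ratio had the opposite direction in both classes of nuclei. Its log2 ratio of E18.5 over E14.5 was -4.82 in myonuclei and 1.39 in Ttn-low nuclei. Ostn levels in Ttn-low nuclei were 0.681 CPM at E14.5 and 1.79 CPM at E18.5, from 7 and 27 UMIs, and this opposite direction was not tested.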

How the results depend on the processing

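The counts of genes at least 2-fold higher and lower, 2532 and 1438, moved by over 1.5 times under 4 of 12 settings. The main setting measured 14579 genes. The higher genes numbered 1233 of 8935 in nuclei thinned to 1000 UMIs and 1392 of 10022 with at least 100 UMIs required. They numbered 1687 of 12443 without nuclei with 2 UMIs of mesenchymal, tenocyte or endothelial markers, a setting chosen after seeing the data. The lower genes numbered 814 of 10022 with at least 100 UMIs and 2677 of 20032 with at least 1 UMI in each library. All of these settings thus changed the number of genes measured, and other causes of the moves were not tested. For the 30 genes with the largest gains and losses, 300 log2 ratios were taken under alternatives. Of these, 251 moved by less than their counting interval and 49 by more, and none changed direction. These genes were chosen for the size of their change. Among the list members, Top2a, Sfrp4 and Ebf1 did change sign without marker-bearing nuclei. Of 1020 counts of list members under alternatives 843 were classed as the same, 177 as moved and none as reversed. A single count holds no direction, and the balance of higher and lower members did turn in some lists without marker-bearing nuclei. Bmp and Tgf-beta genes, for example, went from 19 higher and 7 lower of 56 to 8 and 12 of 45. Of 19 named genes with start-site peaks in both libraries 14 moved with the RNA, and 12 of 18 did at annotated transcript starts and 11 of 19 per 1000 bases of peak, settings also added later. No paired analysis was possible because each group is 1 library, and for the same reason no replicate could be left out. Depth limits genes at 0 to the floor of 3 counts.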
